A study of Mus musculus with 36 samples.

Results

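HPC-1, a multipotent progenitor population of the bone marrow, was compared between mice with 1 and with 2 working copies of *Il27ra*, which encodes the specific chain of the receptor for IL-27, after infusion of the vehicle PBS. The comparison takes the 3 PBS-infused heterozygous samples against the 2 PBS-infused intact samples, which the deposited labels define by cell type, agent and genotype, and so 5 of the 36 samples of the series and 5 of its 19 HPC-1 samples. Both groups lacked apolipoprotein E. The controls, called intact here, were *Apoe*-/- with wild-type *Il27ra*, and the heterozygous group was *Apoe*-/-*Il27ra*+/-. All mice ate a Western diet. The infusion of PBS lasted 2 weeks. Each sample held 5000 cells sorted as Lin−Sca-1+c-Kit+CD150−CD48+, a gate that the labels call ST-HSC, and its total RNA was sequenced. The labels give no age or sex and do not say that each sample came from a separate mouse. The methods describe sorting from several mice per genotype and sex as a factor in the original analysis, but the stated numbers of mice do not equal the libraries of each group and no library is tied to a mouse, so the p-values measure the spread between samples, which may be technical.

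IL-27 signals through a receptor made of IL-27RA and gp130, the chain shared with IL-6, which activates Janus kinases and STAT transcription factors. Signaling of this kind can induce interferon-type genes, among them those of antiviral defence and antigen presentation. HPC-1 lie below the stem cell in the hematopoietic tree, and single cells of this gate lean to a varying degree toward granulocyte, mast cell, erythroid or lymphoid fates before they commit.

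The deposited counts summed to 2938837 and 2908629 in the intact libraries and to 3358062, 3103196 and 4922800 in heterozygous replicates 1 to 3, and levels are given as CPM, counts scaled to a common library size after TMM normalization, in the order of the replicates and, where 2 sets are joined by "against", with the intact libraries first. A level of 3 counts, taken as the limit of detection, equals 1.13 and 1.02 CPM in the intact and 0.951, 0.939 and 0.584 CPM in the heterozygous libraries. Log2 CPM correlated across genes at 0.931 between the intact libraries and at 0.927 to 0.93 between the heterozygous ones, while pairs across the genotypes ran from 0.906 to 0.948, so that genotype did not set the libraries apart. *Kit*, the c-Kit receptor of the gate, was abundant at 576 and 612 CPM in the intact and 684, 733 and 531 CPM in the heterozygous libraries. *Cd48* was present at 42.1 and 75.8 against 42.3, 69.95 and 57.96 CPM, and *Slamf1*, which encodes the excluded CD150, was at 0.38 and 2.39 against 1.59, 3.76 and 4.5 CPM. *Ly6a*, which encodes the Sca-1 used for sorting, was low, at 1.13 and 1.71 CPM in the intact libraries (3 and 5 counts), which is near the limit of detection, and at 5.41, 8.78 and 7.24 CPM in the heterozygous ones (17, 28 and 37 counts), all 3 of them above both intact libraries.

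One library stood apart by sex. *Xist*, the RNA of the silenced X chromosome, was at 22.9 and 4.44 CPM in the intact and 0, 2.82 and 3556 CPM in the heterozygous libraries, and the Y-linked *Ddx3y* was at 69.5 and 126 against 101, 125 and 0 CPM. Heterozygous replicate 3 therefore had the expression of a female and the other 4 libraries that of males, and no intact library was female. The same replicate had the most counts, and in several genes of mature lineages below it was the heterozygous library nearest to the intact ones. Its part in the results was examined only by leaving it out and with a Y-linked covariate. Long noncoding RNA of the lincRNA class took 9.07 and 4.141% of the counts in the intact and 7.244, 5.042 and 2.3% in the heterozygous libraries, and ribosomal protein genes took 5.291 and 5.963% against 5.021, 5.548 and 6.157%. On a scale of 1559 genes that separate the Ang II-infused LT-HSC (set at 1) from Ang II-infused HPC-1 (set at 0), the median position was 0.019 and 0.024 in the intact and 0.142, 0.162 and 0.1 in the heterozygous libraries, so that every heterozygous library lay closer to the stem cell end than either intact one. The single Ang II-infused HPC-1 libraries ran from −0.186 to 0.149 on this scale, with intact replicate 1 at 0.098. The gap between the PBS groups therefore lay within that spread.

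*Il27ra* (ENSMUSG00000005465, mm10 chromosome 8, 84030294 to 84042589, minus strand) did not separate the genotypes. It was at 7.89 and 11.6 CPM in the intact libraries, from 21 and 34 counts, and at 14.9, 10.7 and 9.59 CPM in the heterozygous ones, from 47, 34 and 49 counts. The groups overlapped, with means of 9.75 ± 2.63 (SD, n = 2) and 11.7 ± 2.83 (SD, n = 3) CPM, and the log2 fold change was 0.26 with an SE of 0.55 (p after Benjamini-Hochberg adjustment = 1, from the quasi-likelihood test in edgeR). In the PBS-infused libraries labelled knockout, which by that label have no intact allele, it was at 6.5, 10.7 and 7.94 CPM (log2 fold change −0.22 against intact, unadjusted p = 0.691). The 3 genotypes overlapped, so the labels could not be checked from this gene.

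Of 13199 genes tested, edgeR's quasi-likelihood test called 0 (0%) at an adjusted p under 0.05, and the smallest adjusted p was 0.333. At an unadjusted p under 0.05 there were 631 genes (4.78%), 321 higher (2.43%) and 310 lower (2.35%) in the heterozygous libraries. Without intact replicate 2 this count was 235, and without heterozygous replicate 2 it was 326. DESeq2 over the same 6 HPC-1 groups called 6 genes and limma-voom called 0. The 2 groups did not overlap in 1540 genes higher (11.7%) and in 1580 genes lower (12%) in the heterozygous libraries. The gene values that follow are therefore levels and not calls of the quasi-likelihood test. As RNA was taken from sorted pools, fewer cells of a type and less RNA per cell cannot be told apart.

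First on the lower side by unadjusted p was *Csf2rb* (ENSMUSG00000071713, chromosome 15, 78325752 to 78353847, plus strand), the common beta chain of the GM-CSF, IL-3 and IL-5 receptors. It was at 153 and 172 CPM in the intact and 62.6, 68.1 and 94.6 CPM in the heterozygous libraries, a log2 fold change of −1.11 (SE 0.22, unadjusted p = 3.44e-05 and 0.333 after adjustment, quasi-likelihood test of edgeR). Its near-identical neighbour *Csf2rb2*, with which reads may be shared, was at 16.5 and 35.5 against 10.8, 11.3 and 12.3 CPM. In both genes every heterozygous library was below both intact ones. *Tfrc*, the transferrin receptor that brings iron into dividing and erythroid cells, was at 229 and 219.9 CPM against 129, 90.03 and 129.6 CPM. The extracellular matrix gene *Emilin2* was at 139.8 and 140.0 against 73.1, 52.7 and 54.04 CPM. The intact pair of *Emilin2* differed by less than 1 CPM. *Gadd45gip1*, a protein of the mitochondrial ribosome, was at 101 and 96.6 in the intact and 44.5, 33.6 and 45.6 CPM in the heterozygous libraries. In these 3 genes too no heterozygous library reached an intact one. The leading genes were taken only from those without overlap, so the choice fixed this separation, and *Csf2rb2* was named after its values were seen. Of all genes tested, 12% were lower without overlap.

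*Cpa3*, the carboxypeptidase of mast cell granules, was at 52.6 and 104 CPM in the intact and 31.2, 23.2 and 23.3 CPM in the heterozygous libraries. The complement gene *C3* was at 37.97 and 66.2 against 8.58, 13.2 and 18.99 CPM, and *Hp*, the hemoglobin-binding haptoglobin, at 24.1 and 45.4 against 7.31, 4.08 and 14.5 CPM. For these 3 genes the intact libraries themselves differed, with replicate 2 above replicate 1. *Ifitm1* had the same pattern, with 56.8 and 132 CPM in the intact and 22.9, 31.99 and 44.5 CPM in the heterozygous libraries, and it is the 1 interferon-inducible gene on this side of its list at an unadjusted p under 0.05. *Ncln*, a protein of the endoplasmic reticulum membrane, was at 103 and 145 against 60.4, 55.5 and 86.7 CPM, and the glycolytic aldolase *Aldoa* at 309 and 383 against 229, 212 and 236 CPM. These leading genes ran from a log2 fold change of −0.62 in *Aldoa* to −4.32 in the immunoglobulin light chain gene *Igkc*, a transcript of mature B and plasma cells at 9.4 and 14 CPM in the intact and 1.27, 0.31 and 0.2 CPM in the heterozygous libraries.

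On the higher side *G2e3* (ENSMUSG00000035293, chromosome 12, 51348061 to 51376986, plus strand), a ubiquitin ligase named for its G2/M expression, came first. It was at 21.8 and 12.3 CPM in the intact and 59.5, 48.6 and 46.6 CPM in the heterozygous libraries, a log2 fold change of 1.60 (SE 0.365, unadjusted p = 0.000189 and 0.415 after adjustment, quasi-likelihood test of edgeR). Interferon-inducible genes were among the next. *Ifi203*, a member of the p200 family of nuclear DNA sensors, was at 218 and 174 CPM in the intact and 431, 450.4 and 273 CPM in the heterozygous libraries, *Trim34a* at 33.8 and 21.9 against 63.3, 63.99 and 46.01 CPM, and the chromatin reader *Sp140* at 34.2 and 20.8 against 56.6, 69.6 and 37.2 CPM. In all 3 genes heterozygous replicate 3 was the lowest of its group. It was above the intact libraries, which the choice of genes without overlap required. *H2-Q6*, an MHC class Ib gene that shares reads with near-identical neighbours, was at 97.7 and 113 against 189, 243 and 148 CPM. *Calcrl*, the receptor for adrenomedullin on stem and progenitor cells, was at 99.2 and 93.2 against 174, 216 and 135 CPM, and *Esr1*, the estrogen receptor alpha, at 33.8 and 29.02 against 70.3, 69.01 and 52.7 CPM. The other 5 of the 12 were *Crispld1*, *Fam49a*, *Pik3c2a*, *Washc4* and *Msrb3*, of which *Crispld1* had the largest log2 fold change, 2.37 (SE 0.629), at 3.76 and 2.05 CPM in the intact and 19.7, 17.2 and 8.42 CPM in the heterozygous libraries.

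**Figure D1:**
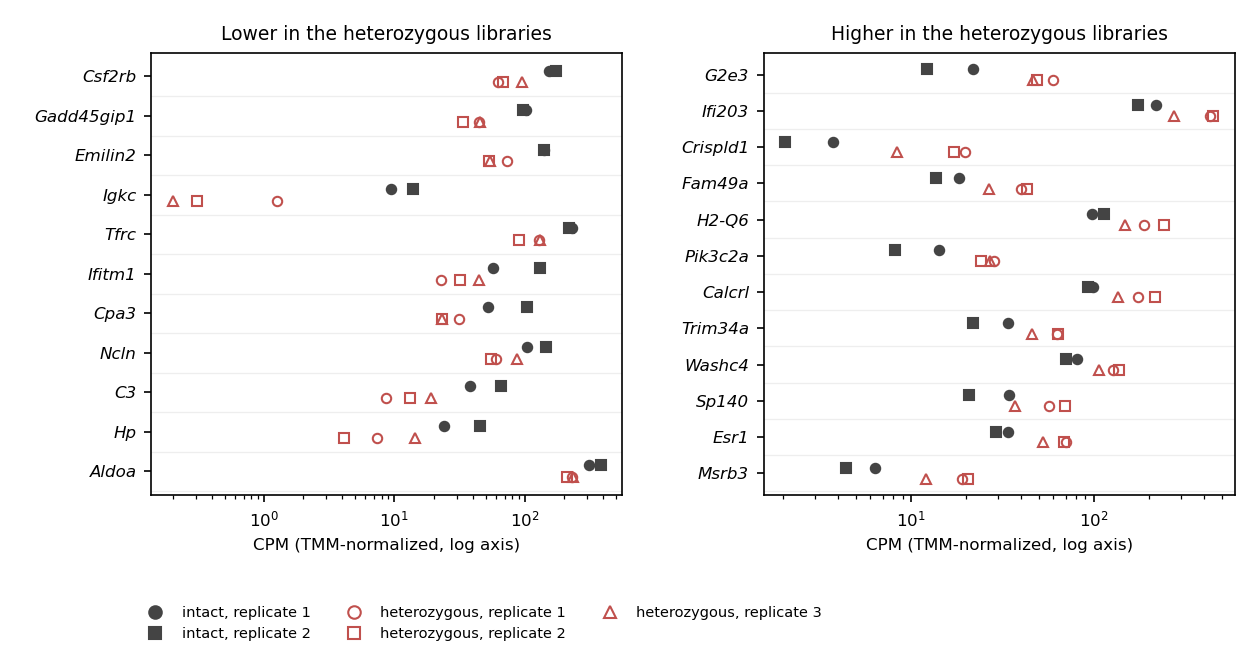
Level of leading genes in each direction (CPM after TMM normalization, log axis) in the 2 intact (filled) and 3 heterozygous (open) libraries of PBS-infused HPC-1. The groups do not overlap in any gene shown, which the choice of the genes fixed, and none was called by edgeR's quasi-likelihood test.

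Genes of granulocytes were mostly lower in the heterozygous libraries. Of 26 neutrophil list members tested, 9 were lower and 1 higher at an unadjusted p under 0.05, and the median log2 fold change was −1.54, beside 0.01 over all genes tested. The list summed to 6369.6 and 7361 CPM in the intact and 3104, 3160.3 and 5508 CPM in the heterozygous libraries. Most of that sum was *Mpo* (ENSMUSG00000009350, chromosome 11, 87793581 to 87804413, plus strand), the myeloperoxidase of primary granules, at 5257 and 5843 CPM against 2402, 2394 and 4543 CPM (log2 fold change −0.83, SE 0.28), with replicate 3 of the heterozygous group near the intact libraries. The granule proteases *Prtn3* and *Elane* overlapped through that replicate, with *Prtn3* at 214 and 273 against 79.5, 82.2 and 220.5 CPM and *Elane* at 104 and 209 against 37.2, 43.6 and 105 CPM. *Ctsg*, another granule protease, was at 239.8 and 324 against 124, 118 and 209.7 CPM. *Ms4a3*, a marker of granulocyte and monocyte progenitors, did not overlap, at 32.3 and 33.8 against 5.41, 5.96 and 14.9 CPM. Genes of later, secondary granules were near the limit of detection in most libraries and rested on intact replicate 2, with *Lcn2* at 2.26 and 19.1 against 0.32, 0 and 0.98 CPM and *Ngp* at 2.26 and 27.6 against 0.95, 0.94 and 0.39 CPM. The 1 higher member was *Padi4*, a histone-modifying enzyme, at 33.8 and 26.6 CPM in the intact and 48.6, 59.3 and 42.3 CPM in the heterozygous libraries.

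Values of 3 transcription factors with a part in granulocyte development are given as single genes. *Cebpa* was at 120.3 and 117 against 49.9, 55.5 and 112 CPM, *Gfi1* at 45.5 and 41.3 against 35.9, 23.2 and 22.7 CPM and *Spi1*, which encodes PU.1, at 126 and 114 against 82.7, 76.5 and 86.2 CPM. No heterozygous library reached an intact one in any of the 3 genes. In the monocyte and macrophage list 2 of 17 members were lower and 0 higher (median −0.18), led by the chemokine receptor *Ccr2* at 86.8 and 92.5 against 14.9, 6.27 and 54.4 CPM, while *Irf8*, the factor of the monocyte branch, overlapped at 194 and 117 against 85.8, 91.6 and 205 CPM.

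Of 13 mast cell, basophil and eosinophil genes tested, 6 were lower and 0 higher at an unadjusted p under 0.05 (median −1.60), and the list summed to 357 and 483 CPM in the intact and 250.2, 232 and 293 CPM in the heterozygous libraries. *Hdc*, which makes histamine, was at 27.8 and 32.4 against 7.95, 2.2 and 13.9 CPM. *Prg2*, the major basic protein of eosinophil granules, had 9 and 14 counts in the intact and 0 in all heterozygous libraries. *Siglecf*, a lectin of eosinophils, was at 22.2 and 33.5 against 13.04, 7.53 and 19.97 CPM, and *Ms4a2*, the IgE receptor beta chain, at 5.26 and 8.19 against 0, 0.31 and 2.55 CPM. *Gata2*, the most abundant member and also a stem cell factor, differed little, at 195 and 210.0 against 157, 171 and 182 CPM. In the erythroid list 2 of 22 members were lower and 0 higher (median −1.005), *Tfrc* and the red cell anion exchanger *Slc4a1* at 2.63 and 6.83 against 0.32, 0.63 and 0.98 CPM. *Klf1*, the master factor of red cells, varied widely within both groups, at 9.77 and 37.9 against 4.45, 2.2 and 18.8 CPM. The megakaryocyte list was divided, with 2 of 19 members higher and 1 lower (median −0.10): the platelet receptor subunit *Gp1ba* was at 6.39 and 29.7 against 4.45, 4.71 and 6.85 CPM, where the groups overlapped and intact replicate 2 was highest, and *Mmrn1* of platelet granules at 12.03 and 8.88 against 23.5, 35.8 and 13.5 CPM.

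Genes of the first lymphoid steps were on the opposite side. Of 18 members tested, 9 were higher and 0 lower at an unadjusted p under 0.05, the highest share of any list with more than 1 tested member, with a median log2 fold change of 0.87 and summed levels of 1684 and 1340.4 CPM in the intact and 2247, 2441 and 1905 CPM in the heterozygous libraries. *Dntt* (ENSMUSG00000025014, chromosome 19, 41029275 to 41059525, plus strand), the terminal transferase of early lymphoid progenitors, was at 62.4 and 27.3 CPM in the intact and 202, 216 and 172 CPM in the heterozygous libraries, a log2 fold change of 2.13 (SE 0.674, unadjusted p = 0.007 and 0.966 after adjustment in edgeR). *Flt3*, the receptor that marks lymphoid-primed multipotent progenitors, was at 210.1 and 88.8 against 334, 385 and 297 CPM, with the intact libraries far from each other and both below the heterozygous ones. *Satb1*, a chromatin organizer of lymphoid progenitors, was at 206 and 143 against 291, 326 and 229 CPM, and *Notch1* at 124 and 85.01 against 152, 209 and 196 CPM. The factors *Ikzf1* and *Mef2c* differed less, with *Ikzf1* at 237 and 212 against 265, 326 and 283 CPM and *Mef2c* at 137 and 123 against 209, 194 and 141 CPM. The remaining 3 were low: *Rag2*, of the recombinase, had 1 and 0 counts in the intact and 11, 34 and 13 counts in the heterozygous libraries, *Il7r* had 2 and 1 against 9, 26 and 34 counts and *Blnk* had 0 and 2 against 3, 19 and 15 counts.

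Several stem cell genes were also on the higher side. Of 31 members of the HSC list, 6 were higher and 1, *Ifitm1*, was lower at an unadjusted p under 0.05 (median 0.30), but the summed levels overlapped, at 2143 and 2115 CPM in the intact and 2579, 2673 and 2080.1 CPM in the heterozygous libraries. *Txnip*, a brake on redox and glucose use in quiescent stem cells, was at 136 and 176 CPM in the intact and 296, 457 and 239.9 CPM in the heterozygous libraries. The stem cell factors *Hlf* and *Mecom* were at 67.7 and 71.01 against 162, 166 and 99.5 CPM and at 16.2 and 11.9 against 48.6, 59.3 and 19.8 CPM. In these 3 genes heterozygous replicate 3 was the lowest of its group. Among the others were *Ly6a* and the growth regulator *Hmga2*, at 10.5 and 10.9 against 27.98, 18.5 and 17.6 CPM. In the multipotent progenitor list, which shares *Flt3*, *Satb1*, *Ikzf1* and *Ly6a* with the lists above, 6 of 25 members were higher and 3 lower (median 0.13), the 3 being *Spi1*, *Gfi1* and *Cebpa*. Among 29 growth factor receptors 3 were higher (among them *Flt3* and *Il7r*) and 2 lower (*Csf2rb* and *Csf2rb2*), with a median of 0.01.

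**Figure D2:**
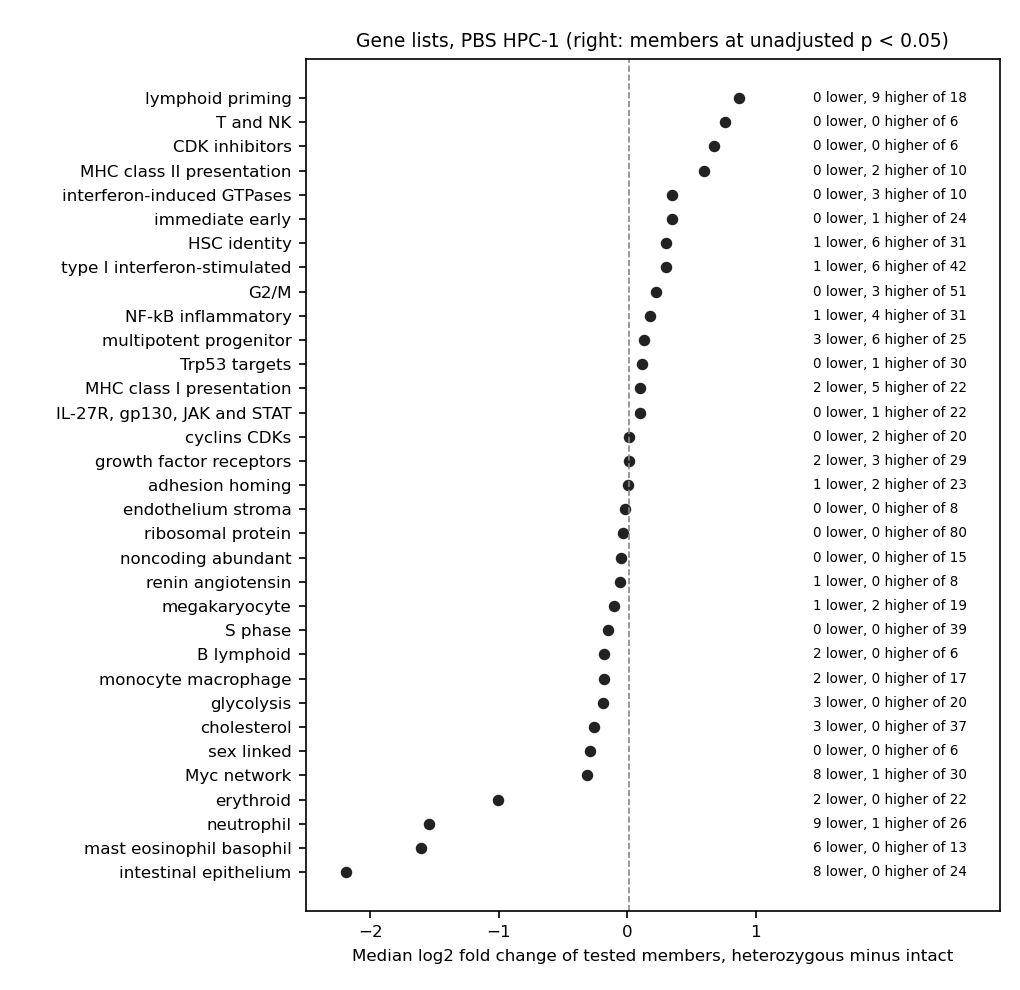
Median log2 fold change (heterozygous minus intact) of the tested members of each gene list with at least 6 of them, with the number of members at an unadjusted p under 0.05 in each direction on the right. The dashed line is the median of all 13199 genes, and lymphoid priming lies highest and intestinal epithelium lowest.

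The receptor pathway itself was mostly even between the genotypes. Of 22 tested genes of IL-27R, gp130, JAK and STAT signaling, 1 was higher and 0 lower at an unadjusted p under 0.05, and the median log2 fold change was 0.10. *Stat2*, a transcription factor of type I interferon signaling, was at 32.3 and 40.6 against 42.3, 62.4 and 42.5 CPM, the interferon-induced factor *Irf1* at 71.8 and 69.99 against 85.2, 105 and 76.2 CPM, and *Ptpn2*, a phosphatase that dampens JAK and STAT signaling, at 42.1 and 32.8 against 48.96, 58.03 and 46.6 CPM. In these 3 genes each heterozygous library was above both intact ones. *Il6st*, which encodes gp130, overlapped at 142 and 111 against 89.3, 88.1 and 138 CPM, as did the kinases *Jak1* at 346 and 296 against 389, 399.9 and 293 CPM and *Tyk2* at 39.5 and 46.1 against 31.5, 34.2 and 43.5 CPM. *Socs3*, the feedback inhibitor of gp130, was at 12.8 and 23.2 against 12.4, 11.3 and 11.9 CPM, where intact replicate 2 made most of the difference, and *Stat5a*, which serves the *Csf2rb* receptors, at 150.4 and 143 against 116, 112 and 115 CPM. For the cytokine, *Il27* had 0 and 0 counts in the intact and 3, 0 and 1 in the heterozygous libraries, and *Socs2* was not tested either.

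Interferon-stimulated genes were mostly above the intact level. Of 42 type I interferon-stimulated genes, all tested, 32 had a log2 fold change above 0, beside 6745 of all 13199 genes tested. At an unadjusted p under 0.05, 6 were higher and 1 lower (median 0.30). The list summed to 2044 and 2074 CPM in the intact and 2297, 2348 and 2415 CPM in the heterozygous libraries. *Ifi44* was at 15.8 and 7.85 against 26.7, 47.4 and 30.1 CPM, and *Ddx58*, the RNA sensor RIG-I, at 48.5 and 59.1 against 78.2, 120.1 and 67.5 CPM. *Irf9*, which joins STAT2 in the interferon-activated complex, was at 74.4 and 69.7 against 117, 93.8 and 114 CPM. The others were *Trim30a*, *Ifih1* and *Parp14*. Interferon-induced GTPases, which attack pathogen vacuoles, had 3 of 10 members higher and 0 lower (median 0.35). These were *Iigp1* at 2.26 and 5.46 against 13.3, 21.6 and 21.9 CPM, *Irgm2* at 26.3 and 20.5 against 29.9, 40.5 and 47.4 CPM and *Tgtp2*, a near copy of *Tgtp1*, at 81.95 and 86.04 against 98.2, 132 and 207 CPM. Heterozygous replicate 3, the nearest to the intact libraries in most lineage genes above, had the highest level of *Iigp1*, *Irgm2* and *Tgtp2*.

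Of 22 members of the MHC class I list, 5 were higher and 2 lower at an unadjusted p under 0.05 (median 0.10). The 5 were the nonclassical class I genes *H2-Q4*, *H2-Q6*, *H2-Q7*, *H2-T22* and *H2-T23*, whose reads can be split among near-identical copies, with *H2-Q4* at 84.6 and 90.5 against 139, 176 and 139 CPM and *H2-T23* at 95.5 and 80.6 against 102, 173 and 119 CPM. The 2 lower members were chaperones that help fold the heavy chain, *Calr* at 3405 and 3160.5 against 2253, 1477 and 1731 CPM and *Pdia3* at 614 and 814 against 511, 469.6 and 469 CPM. Of 10 class II genes 2 were higher and 0 lower (median 0.60): *H2-Ob* was at 13.2 and 17.1 against 21.6, 48.9 and 21.7 CPM, and *H2-Aa* had 0 counts in the intact and 3, 5 and 18 in the heterozygous libraries. Among 31 inflammatory and NF-kB genes 4 were higher and 1 lower (median 0.18), with *Traf6*, an adaptor of Toll-like and IL-1 receptors, at 43.2 and 22.2 against 48.6, 72.8 and 57.96 CPM, *Nfkb1* at 133 and 148 against 175, 203 and 171 CPM and the interferon gamma receptor *Ifngr1* on the lower side at 143 and 159.8 against 101, 93.8 and 118 CPM.

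To show the sequence that such genes share, RefSeq promoters (GRCm38.p6, 250 bases before to 50 after the start) were searched on both strands for GAAA, any 2 bases and GAAA again, a core of the element that IRF9 and other IRF factors bind. It was in 1079 of 27025 genes with a promoter (3.99%), in 14 of 31 type I interferon-stimulated genes (45.2%), in 9 of 10 interferon-induced GTPases (90%) and in 5 of 19 MHC class I genes (26.3%), but in 1 of 17 lymphoid priming (5.88%) and 1 of 26 neutrophil genes (3.85%). Of 14 members of the first 3 of these lists that were higher without overlap at an unadjusted p under 0.05, 12 had a promoter and 7 the motif. The 4 of these 7 with the smallest p are printed 5′ to 3′ along the gene, with the motif in capitals, from chr4:40239776-40240075 (minus strand), chr7:104465144-104465443 (minus), chr11:49064163-49064462 (minus) and chr17:36042693-36042992 (minus). A match is a description of the sequence and not a bound site.
*Ddx58*: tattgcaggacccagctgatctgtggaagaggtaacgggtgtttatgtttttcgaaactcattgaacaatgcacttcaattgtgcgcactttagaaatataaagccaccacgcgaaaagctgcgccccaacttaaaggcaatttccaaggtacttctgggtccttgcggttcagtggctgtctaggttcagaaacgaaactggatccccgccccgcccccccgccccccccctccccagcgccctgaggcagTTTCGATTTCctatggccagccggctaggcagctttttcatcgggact
*Trim30a*: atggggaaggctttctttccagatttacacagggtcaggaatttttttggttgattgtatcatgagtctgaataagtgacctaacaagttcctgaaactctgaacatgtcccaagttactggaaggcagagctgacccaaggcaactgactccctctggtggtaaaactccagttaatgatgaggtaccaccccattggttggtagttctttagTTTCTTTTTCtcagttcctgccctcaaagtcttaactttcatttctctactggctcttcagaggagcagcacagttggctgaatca
*Tgtp2*: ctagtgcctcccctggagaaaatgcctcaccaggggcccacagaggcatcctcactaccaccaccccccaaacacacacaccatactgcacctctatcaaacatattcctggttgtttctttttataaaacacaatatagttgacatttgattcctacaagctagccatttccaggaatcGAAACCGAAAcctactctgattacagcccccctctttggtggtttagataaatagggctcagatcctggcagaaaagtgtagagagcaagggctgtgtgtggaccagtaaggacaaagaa
*H2-T22*: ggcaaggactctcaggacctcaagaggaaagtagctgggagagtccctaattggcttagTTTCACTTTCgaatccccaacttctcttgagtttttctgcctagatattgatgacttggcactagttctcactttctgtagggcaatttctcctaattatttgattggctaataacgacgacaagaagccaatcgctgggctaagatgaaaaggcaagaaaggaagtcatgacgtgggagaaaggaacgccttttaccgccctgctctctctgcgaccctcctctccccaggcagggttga

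Few cell cycle genes passed an unadjusted p of 0.05. Of 51 G2/M genes, 42 had a log2 fold change above 0, beside 6745 of all 13199 genes tested. On the higher side 19 of the 51 did not overlap, beside 11.7% of all genes. At an unadjusted p under 0.05, 3 were higher and 0 lower (median 0.22). The summed levels of the list overlapped, at 7506 and 8812 CPM in the intact and 9972, 10409 and 8686 CPM in the heterozygous libraries. The spindle protein *Nusap1* was at 76.7 and 81.9 against 150.4, 178 and 96.1 CPM, the mitotic kinesin *Kif11* at 179 and 178 against 277, 353 and 233 CPM and *Kif23*, a kinesin of cytokinesis, at 80.8 and 78.5 against 100.5, 124 and 122 CPM. The S phase list had 0 of 39 members past that threshold in either direction (median −0.14), with the replication licensing gene *Mcm2* at 453 and 392 against 337, 336 and 319 CPM. Of 20 cyclins and cyclin-dependent kinases 2 were higher and 0 lower (median 0.02), among them *Ccnd1*, the cyclin D1 of G1, at 21.1 and 8.88 against 35.3, 26.04 and 29.4 CPM. Of 6 cyclin-dependent kinase inhibitors none passed in either direction (median 0.68), and the most abundant, *Cdkn1b*, which encodes p27, was at 59.8 and 61.8 against 83.6, 96.3 and 56.98 CPM. Of 30 *Trp53* targets 1 was higher and 0 lower (median 0.11), *Trp53inp1* at 33.8 and 25.3 against 65.2, 109 and 47.6 CPM.

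Genes of growth and sugar metabolism were mostly on the lower side. Of 30 Myc network genes, 8 were lower and 1 higher at an unadjusted p under 0.05 (median −0.31). On the lower side 13 of the 30 did not overlap, beside 12% of all genes tested. *Odc1*, the first enzyme of polyamine synthesis, was at 192 and 239 against 148, 134 and 139 CPM, the polymerase I subunit *Polr1b* at 90.6 and 106 against 76.9, 56.1 and 76.6 CPM and the nucleolar *Nolc1* at 455 and 369 against 327, 204 and 265 CPM. *Ncl*, which encodes nucleolin and was the most abundant, was at 5442 and 4334 against 4237, 3033 and 3112 CPM. The 1 higher member was *Mga*, a partner of MAX, at 427 and 324 against 583, 532 and 395 CPM, and *Mycn*, which encodes a Myc family factor, was on the same side at 15.4 and 12.97 against 34.97, 28.5 and 23.1 CPM. Of 20 glycolysis genes 18 had a log2 fold change under 0 (median −0.19), beside 6430 of all 13199 genes tested. The list summed to 3927 and 4183 CPM in the intact and 3017, 3125 and 3806 CPM in the heterozygous libraries. At an unadjusted p under 0.05, 3 were lower and 0 higher. Besides *Aldoa* these were *Tpi1* at 139 and 130.1 against 79.2, 82.8 and 100.5 CPM and *Eno1* at 392 and 425 against 245, 288 and 331 CPM. Of 37 cholesterol genes 3 were lower and 0 higher (median −0.26), among them the HDL receptor *Scarb1* at 103 and 114 against 64.9, 52.7 and 72.8 CPM and the synthesis enzyme *Ebp* at 42.9 and 46.8 against 25.1, 25.1 and 26.8 CPM. Of 80 ribosomal protein genes none passed in either direction (median −0.03).

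**Figure D3:**
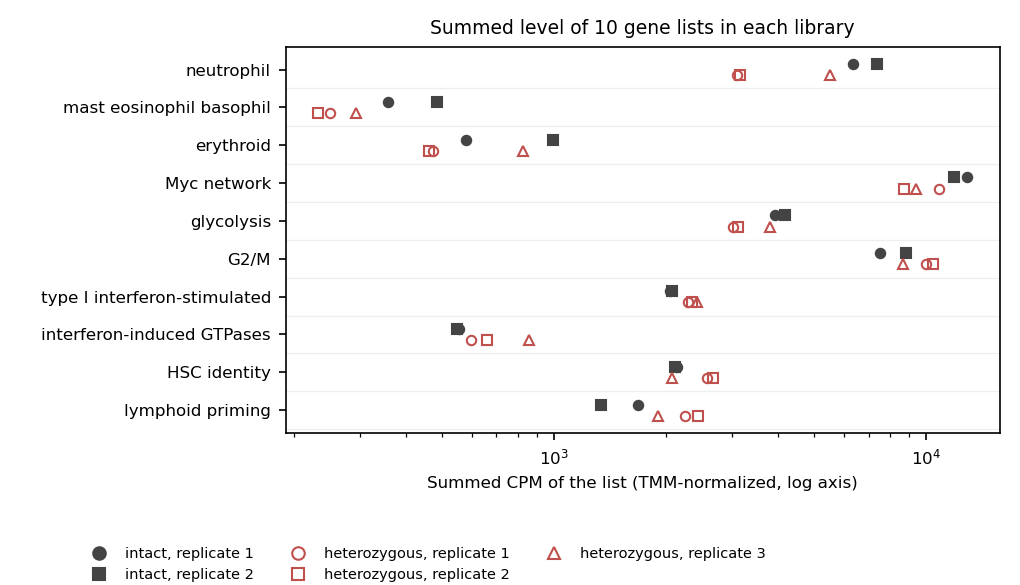
Summed CPM (TMM-normalized, log axis) of 10 gene lists in each of the 2 intact (filled) and 3 heterozygous (open) libraries. Neutrophil and mast cell sums are lower and lymphoid priming and interferon sums higher in all 3 heterozygous libraries than in both intact ones, and heterozygous replicate 3 is nearest to the intact libraries in the neutrophil, mast cell and lymphoid sums.

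Transcripts of cells outside the gate were few but not even. Intestinal epithelium markers, which a marrow sort should lack, had 8 of 24 tested members lower and 0 higher in the heterozygous libraries (median −2.19). They summed to 671 and 816 CPM in the intact and 541, 651 and 553 CPM in the heterozygous libraries, but most of this was *Muc13*, which progenitors express themselves, at 462 and 537 against 460.4, 519 and 404 CPM. *Agr2*, a protein of secretory epithelium, had 17 and 13 counts in the intact and 0, 0 and 1 in the heterozygous libraries, *Fcgbp* of goblet cells 20 and 12 against 0, 1 and 2 and the immunoglobulin transporter *Pigr* 27 and 19 against 0, 7 and 6. Of the 40 members 8 had no count in any of the 5 libraries. The part of these transcripts in the other differences was not tested. Of 6 B lymphoid genes tested 2 were lower (*Igkc* and *Jchain*, the latter with 0 and 22 counts against 1, 0 and 1, all but 1 library near 0) and 0 higher (median −0.18), and *Ighm*, the most abundant, overlapped at 122 and 129 against 99.5, 123 and 77.9 CPM.

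Other lists were sparse or even. None of the tested members passed an unadjusted p of 0.05 in either direction in the T and NK list (6 tested, median 0.76), the endothelium and stroma list (8, −0.02), the keratinocyte list (4, 1.19), the pancreatic acinar list (1, 0.11), the abundant noncoding RNAs (15, −0.05) and the sex-linked genes (6, −0.29). The hepatocyte list had 1 tested member, *Apob*, at 3.38 and 2.73 against 14.3, 17.9 and 5.29 CPM. Of 24 immediate early genes 1 was higher, the phosphatase *Dusp2*, and 0 were lower (median 0.35), of 8 renin-angiotensin genes only *Ctsg* was lower and 0 were higher (median −0.06), and of 23 adhesion and homing genes 2 (*Alcam* and *Mmrn1*) were higher and 1 (*Emilin2*) was lower (median 0.01).

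Other HPC-1 groups give these values a frame. The 3 PBS-infused libraries labelled knockout, a label that the *Il27ra* levels above do not show, are compared with the same intact libraries, so the values are only set side by side. *Csf2rb* was at 73.7, 63.5 and 88.4 CPM in the knockout libraries, *Mpo* at 2142, 2350.3 and 4135 CPM, *Dntt* at 469.6, 341 and 199 CPM and *Ifi203* at 397, 447 and 299 CPM, on the side of the heterozygous group. The last of these libraries was female as well, with *Xist* at 5.57, 0.3 and 4155 CPM. *H2-Q6* was nearer to the intact level, at 123, 146 and 104 CPM, a log2 fold change of 0.24 against intact beside 0.87 in the heterozygous libraries. At an unadjusted p under 0.05 the knockout had 0 higher and 3 lower of the MHC class I genes (median −0.02) and 0 higher and 1 lower of the interferon-induced GTPases (median 0.33, beside 0.35 in the heterozygous libraries), and 5 higher and 1 lower of the type I interferon-stimulated genes. Against heterozygous, 1 of 22 MHC class I genes was lower in the knockout and 0 of 10 GTPases passed that threshold in either direction. Against intact, the knockout had 2 genes called and 865 at an unadjusted p under 0.05, and against heterozygous it had 0 called by edgeR's quasi-likelihood test and 151. After infusion of Ang II, in libraries that share none with PBS, *Csf2rb* was at 135, 132 and 116 CPM in 3 intact and 109, 115, 145 and 144 CPM in 4 heterozygous libraries, and *Mpo* at 3998, 5187 and 5591 against 5797, 5496, 5507 and 4539 CPM. There the groups overlapped in both genes, with log2 fold changes of 0.01 and 0.12, beside −1.11 and −0.83 after PBS. The neutrophil median was 0.20 after Ang II and −1.54 after PBS, that of lymphoid priming 0.41 and 0.87, and that of mast cells, basophils and eosinophils −1.11 and −1.60. Of 24 intestinal epithelium genes 18 were lower and 0 higher after Ang II at an unadjusted p under 0.05 (median −3.55). After PBS these were 8 and 0 (median −2.19). Over all 13199 genes 567 were lower after Ang II. Type I interferon-stimulated genes had 0 higher and 2 lower after Ang II (median 0.18). Interferon-induced GTPases had 2 higher and 0 lower (median 0.21). The test of the difference between both effects called 0 of 13199 genes (0%) by edgeR's quasi-likelihood test, with 605 at an unadjusted p under 0.05 and a smallest adjusted p of 0.981, while DESeq2 called 1. The difference was −1.12 in *Csf2rb* (unadjusted p = 0.000725), −2.86 in *Hp* and −0.23 in *Tfrc*, where the Ang II libraries were at 217, 217 and 175 against 159.6, 106, 103 and 127 CPM and did not overlap either.

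Which genes passed depended on the model. DESeq2 over the 6 groups called 5 genes lower, among them *Csf2rb*, *Gadd45gip1*, *Igkc* and *Emilin2*, and *G2e3* higher, with adjusted p-values of 0.0189 to 0.0487. DESeq2 over the 5 libraries with Y-linked expression as a covariate called 60 genes lower and 26 higher of 11704 in that fit, among them 6 of 14 neutrophil genes (*Mpo*, *Prtn3*, *Elane*, *Ctsg*, *Ms4a3* and *Hp*), 5 of 16 erythroid genes, *Cpa3* and *Hdc* on the lower side and *Dntt*, *Satb1*, *Hlf*, *Mecom* and *Txnip* on the higher. Of 41 type I interferon-stimulated genes it called 0 higher and 1, *Ifitm1*, lower. Of 22 MHC class I genes it called *H2-Q6* higher and *Calr* lower. Only heterozygous replicate 3 lacked Y-linked counts, so this covariate mainly set that library apart from the other libraries. The quasi-likelihood test with this covariate called 0 genes. Without the female library the quasi-likelihood test called 0 genes, with 893 at an unadjusted p under 0.05 in place of 631.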

How the data were processed

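The authors aligned reads of stranded total RNA libraries to mm10 with STAR and estimated gene counts with RSEM. The submitters' notes name Bowtie2, RSEM 1.2.31 and DESeq2. The deposited values are expected counts in whole numbers for 38887 genes. The Ensembl release is not given in the sources used here. Symbols matched 37570 identifiers (99.63% of counts), and no gene of the mitochondrial genome was analysed here. Groups come from the labels, and no library was dropped.

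edgeR 4.0.16 in R 4.3.3 was used with filterByExpr, TMM and a robust quasi-likelihood test of 13199 genes, with all 19 HPC-1 libraries (2272026 to 6318379 counts) and 6 groups in 1 model and Benjamini-Hochberg adjustment at 0.05. Standard errors are the fold change over the root of F. Alternatives were upper-quartile scaling, DESeq2 1.42.0, limma-voom (limma 3.58.1) with sample weights, no robust option, other filters (a total of 1, a mean of 10 counts), only the compared groups, a replicate block, a Y-linked covariate and each replicate left out. DESeq2 over the compared groups without a covariate was chosen after seeing the data. The limit of 3 counts covers counting error only. The fits were tested on simulated counts drawn with the spread that edgeR estimated, a setting close to edgeR's own model. There DESeq2 made the most false calls and also recovered the most changed genes. The simulation therefore cannot rank the fits on these data.

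The members and lists were chosen with earlier results of these data known. Named genes were *Il27ra* and its pathway, genes called (12 per direction), completed by unadjusted p among genes without overlap, with 10 CPM or more in the higher group and without a predicted-gene or clone name (which left out *Gm47283*), for each of 35 lists up to 3 members by p and the most abundant, gate and sex-linked genes, and *Emilin2*, *Gm21887* and *Agr2*. Other named members were chosen after their values were seen.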

Additional observations from a re-analysis of the deposited data

Results flagged for a closer look

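No PBS group has the 4 libraries needed to test for a library far from its group. In the Ang II-infused heterozygous HPC-1, which enter the test of the difference between both effects, 12 values were checked in the 4 libraries, and chance flags about 1 in 20 groups. The total counts of replicate 4, 6318379, were far from those of the others, which ran from 2272026 to 2618919. The same library had *Xist* at 3379 CPM, against 4.64 to 5.65 CPM in the others.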

How the results depend on the processing

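The quasi-likelihood test called 0 genes with upper-quartile scaling, without the robust option, with a mean of at least 10 counts, with the Y-linked covariate and without any 1 of the 5 libraries, and limma-voom also called 0. DESeq2 over the 6 groups called 6, no filter beyond a total of 1 count gave 21, the compared groups alone gave 1 (*Gm47283*) and DESeq2 with the Y-linked covariate gave 86. DESeq2 over the compared groups without a covariate, chosen after seeing the data, called 27. The count at an unadjusted p under 0.05, 631, was 1058 with limma-voom and 972 without the filter, and 235 to 893 without 1 library. The block of replicate numbers gave 2 calls (*Gm47283* and *Csf2rb*, the latter with an adjusted p of 0.0383 in place of 0.333), and the deviations of the pair with number 1 correlated at 0.221 and those of number 2 at 0.091. Those of intact replicate 2 and heterozygous replicate 3, which differ in number, correlated at 0.127. The deviations of the 2 intact libraries mirror each other, so each of these values only changes sign with the other intact replicate. The share of lincRNA counts ran with the number (9.07, 7.24 and 6.604% in number 1 and 4.14, 5.04 and 4.01% in number 2 of the intact, heterozygous and knockout libraries, 2.3 and 2.445% in number 3 of the last 2). Replicate 3 was female in the heterozygous and knockout PBS groups, and replicate 4 in both of these after Ang II. The labels do not say what a number stands for. For the difference between the effects after PBS and after Ang II, 0 in the reported test, DESeq2 called 1, no filter 8, the block 1, DESeq2 with the covariate 4 and DESeq2 without it, added after seeing the data, 2. It was 0 in all other settings.

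Many named genes were chosen by a small p, by groups without overlap or after their values were seen. A stable sign was thus largely fixed by the choice, and every setting used the same data. Of 126 named genes besides *Il27ra*, 121 kept the sign of their log2 fold change in every setting in which they could be fitted. That of *Xist* turned from 6.45 to −2.24 with the Y-linked covariate, to −2.84 with DESeq2 and the covariate, and ran from −3.22 (without heterozygous replicate 3) to 8.09 with 1 library left out. In that way *Irf8* ran from −0.81 to 0.15, *Jchain* from −5.16 to 2.56, *Cd48* from −0.40 to 0.43 and *Ddx3y* from −0.98 to 0.21. *Il27ra* ran from 0.03 to 0.57 with 1 library left out.

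Limits are the number of libraries, 2 of them intact, and the female library, which of the groups compared only the heterozygous one has. The labels do not state separate mice, the members and lists were chosen with earlier results known, and the limit of detection covers counting error only. The cause of the differences between settings was not tested.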

Other observations

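The values of 4 chaperones of the endoplasmic reticulum, picked after they and those of *Calr* and *Pdia3* had been seen, are given as single genes and stand for no list. *P4hb*, a disulfide isomerase, was at 779.6 and 820.4 CPM in the intact and 566, 409 and 486 CPM in the heterozygous libraries. *Hyou1*, which assists the folding chaperone BiP, was at 250.3 and 288 against 159, 128 and 206 CPM, and *Pdia6*, another isomerase, at 294 and 328 against 174, 196 and 216 CPM. *Hsp90b1*, which encodes GRP94, was at 1457 and 1575 against 1139, 868 and 887 CPM. All 4 were lower without overlap in the heterozygous libraries, as were 12% of all genes, and *Hsp90b1* had an unadjusted p of 0.0509.

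Some predicted genes with near-identical copies separated the genotypes, and their counts are uncertain for that reason. *Gm47283*, placed on chromosome Y by the annotation, was at 905 and 859.7 CPM in the intact and 279, 293 and 262 CPM in the heterozygous libraries, the last being the library without Y-linked counts. In the Ang II-infused HPC-1 it was at 508, 757 and 985 CPM in the intact and 433, 247, 336 and 179.8 CPM in the heterozygous libraries, without overlap. *Gm21887* on chromosome X was at 301 and 196 against 119, 63.7 and 83.02 CPM after PBS, and the pseudogene *Rpl14-ps1* at 222 and 235 against 150.4, 82.2 and 86.2 CPM.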
